A study of Mus musculus with 18 samples.

Results

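Livers of FPC-LIPA mice were compared with livers of CON-GFP mice, to ask which genes stood at the control level and which stayed away from it when a Western diet and overexpression of lysosomal acid lipase were combined. The comparison held 12 of the 18 libraries in the series, 6 in each group, with 1 library per mouse, and the libraries were chosen by their labels. All mice were male C57BL/6J and had received an adeno-associated virus of serotype 8, as young adults, 1 week before the diets began. In CON-GFP (mice 1, 2, 3, 6, 7 and 8) the virus carried GFP and the mice ate a purified control diet for 16 weeks. In FPC-LIPA (mice 31, 33, 34, 36, 37 and 39; mouse 37 is labelled 37b) the virus carried human LIPA and the mice ate the FPC diet, which is rich in fat with added fructose, palmitate and cholesterol, and drank water with fructose and glucose, also for 16 weeks. The third group, FPC-GFP, had the FPC diet and the GFP virus. Its 6 libraries marked which genes the diet alone had changed, and were also compared with FPC-LIPA on the same diet. Both transgenes were driven by the TBG promoter, which is active in hepatocytes. Since there were no libraries of LIPA mice on the control diet, the effect of LIPA without the diet is not analysed here, and in this comparison the diet and LIPA cannot be told apart.

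Lysosomal acid lipase, LAL, is the enzyme that splits cholesteryl esters and triglycerides inside lysosomes, where lipid arrives by endocytosis or by autophagy of lipid droplets. In the liver both hepatocytes and Kupffer cells, the resident macrophages, depend on it. Macrophages that take up much lipid are known to switch on a set of genes that includes Trem2, Gpnmb and Lpl, and are then called lipid-associated macrophages. In bulk liver RNA, fewer cells of a type and less RNA per cell cannot be told apart, and neither can more cells and more RNA per cell.

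Total counts were from 17741598 to 33588153 in CON-GFP and from 16632146 to 37739301 in FPC-LIPA. Levels are given as CPM, counts brought to a common library size by TMM scaling, and can be compared between libraries but not between genes. The mouse gene Lipa (chr19:34492318-34527474, GRCm38) was first examined in every group. Its level in CON-GFP was 202 to 304 CPM (median 241), in FPC-GFP 240 to 406 CPM (median 342) and in FPC-LIPA 254 to 385 CPM (median 292). The ranges of CON-GFP and FPC-LIPA overlapped, and the log2 fold change was 0.28 ± 0.17 (SE, 6 against 6 livers; adjusted p = 0.243, edgeR quasi-likelihood test). The transgene is the human gene, so the count of the mouse gene is no check of the overexpression.

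A gene is named called where edgeR's quasi-likelihood test gave an adjusted p under 0.05 and it differed by 2-fold or more. Of 14433 genes tested 2176 were called, or 15.1%. In FPC-LIPA 1707 of the called genes were higher (11.8% of the tested genes) and 469 were lower (3.25%) than in CON-GFP. The 6 FPC-LIPA and 6 CON-GFP values did not overlap for 1070 of the called genes, 779 higher and 291 lower, while 11.1% of all tested genes did not overlap. The median log2 fold change over all tested genes was 0.04. All log2 fold changes below are FPC-LIPA against CON-GFP, ± SE over 6 against 6 livers, with adjusted p-values from the same test, unless another comparison is named.

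The FPC diet alone, FPC-GFP against CON-GFP, called 1030 of 14307 genes (7.20%), with 681 higher (4.76%) and 349 lower (2.44%). Each of these diet-called genes was placed by its position in FPC-LIPA. It was still away if it was called in FPC-LIPA against CON-GFP in the diet's direction, and at the control level if it was not called and the 95% interval of its log2 fold change lay within 2-fold of CON-GFP. It was not resolved if the interval reached beyond 2-fold or the gene was not tested, and opposite if it was called the other way. Most stayed away: 628 of the 1030 (60.97%) were still away, 355 (34.47%) were not resolved, 43 (4.175%) were at the control level and 4 were opposite. An interval within 2-fold was held by 46.3% of all tested genes. Both comparisons use the same 6 CON-GFP libraries, so a CON-GFP value that is high or low by chance moves both, and the diet-called genes were picked for their distance from these libraries. Of the genes higher on the diet 449 were still away and 19 at the control level, and of the genes lower on the diet 179 were still away and 24 at the control level.

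**Figure D1:**
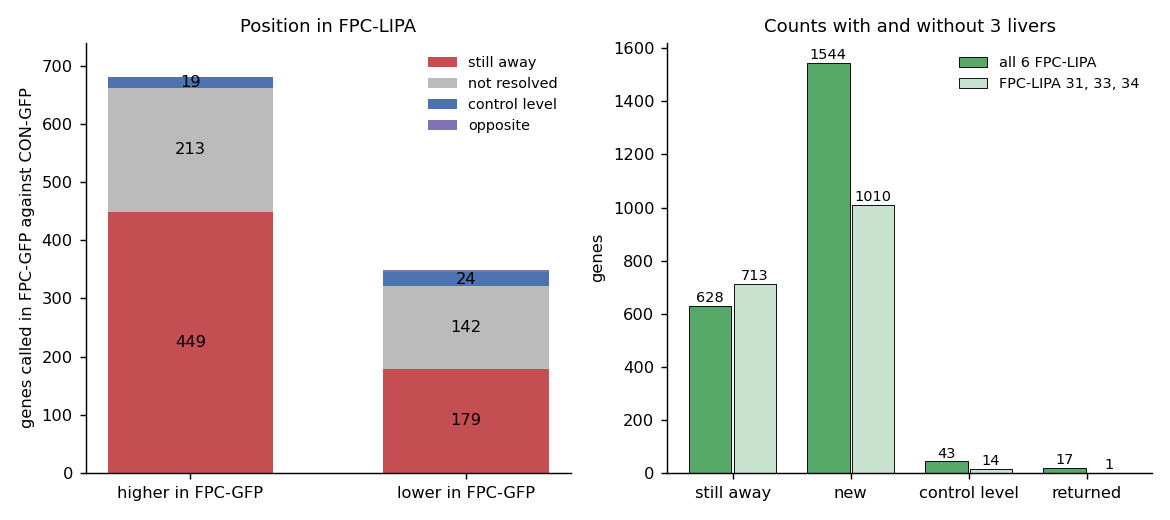
Left, number of diet-called genes (y axis) that were higher or lower in FPC-GFP than in CON-GFP, divided by their position in FPC-LIPA (colours); 449 and 179 were still away. Right, number of genes (y axis) still away, new in FPC-LIPA, at the control level and returned, with all 6 FPC-LIPA livers and with 31, 33 and 34 alone; still away went from 628 to 713 and control level from 43 to 14.

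Livers 36, 37 and 39 stood apart from 31, 33 and 34 within FPC-LIPA. Cytosolic ribosomal protein genes took 6.59%, 8.21% and 8.29% of the counts in 36, 37 and 39, from 2.19% to 2.99% in 31, 33 and 34, and from 1.77% to 2.58% in CON-GFP. The share of the 1030 diet-called genes that lay inside the range of the 6 CON-GFP livers was 31.5%, 24.8% and 31.9% in 36, 37 and 39, and 16.2%, 15.1% and 13.4% in 31, 33 and 34. In the 6 FPC-GFP livers this share was from 6.12% to 22.4%. Over all 14433 tested genes the order was the reverse, with 30.24%, 24.69% and 36.52% inside the CON-GFP range in 36, 37 and 39, against 55.01%, 42.54% and 56.99% in 31, 33 and 34. The labels give no cause for the split, and its part in the results was not tested. The counts of called genes are given with and without them. Liver 37 also had the lowest total and, at the end of its label, a number outside the run of the other 17 libraries. Without 36, 37 and 39, 1723 of 15113 tested genes were called, 1330 higher and 393 lower. Counts of lists given below without these livers stand beside these numbers. Of the 1723, 1206 were among the 2176. In this setting 713 diet-called genes were still away, of which 567 were among the 628.

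**Figure D2:**
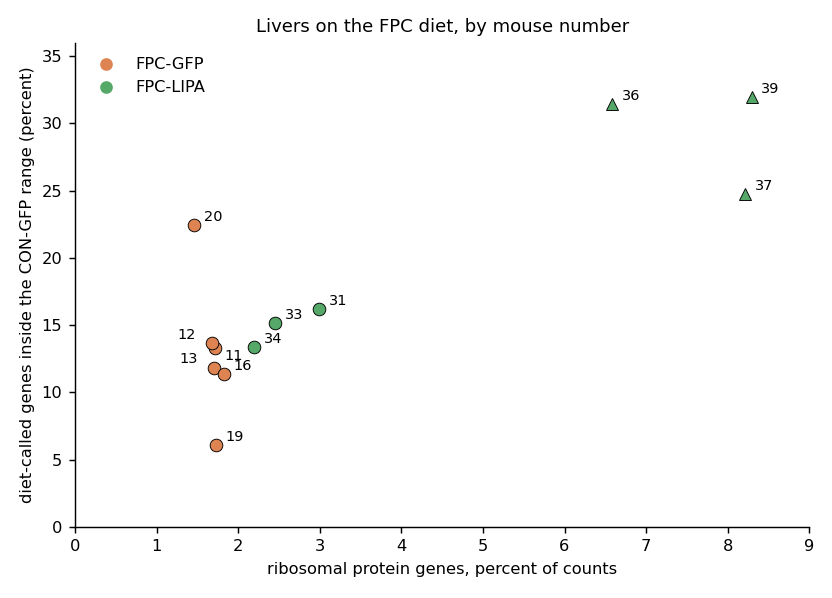
Share of the 1030 diet-called genes inside the range of the 6 CON-GFP livers (y axis, percent) against the share of counts in ribosomal protein genes (x axis, percent) for the 12 livers on the FPC diet, marked by mouse number. FPC-LIPA 36, 37 and 39 (triangles) lie between 24.8% and 31.9%; FPC-LIPA 31, 33 and 34 lie between 13.4% and 16.2%, within the spread of FPC-GFP.

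Genes of lipid-associated macrophages stayed far above the control level. All 10 genes of this list were called higher, 8 of them still away. Their median log2 fold change was 2.82, beside 1.57 in FPC-GFP against CON-GFP. Without 36, 37 and 39, 9 of 10 were called and the median was 2.67. Gpnmb, a membrane glycoprotein of phagocytes (chr6:49036546-49070929), was 0.0815 to 1.32 CPM in CON-GFP (median 0.432), 2.00 to 11.4 CPM in FPC-GFP (median 4.47) and 8.85 to 27.8 CPM in FPC-LIPA (median 18.4). Every FPC-LIPA liver was above every CON-GFP liver, and the log2 fold change was 4.93 ± 0.50 (adjusted p = 2.5e-05). Mmp12, the macrophage elastase, was 0.163 to 2.29 CPM in CON-GFP and 4.98 to 36.4 CPM in FPC-LIPA (median 27.4), a log2 fold change of 4.53 ± 0.55. Trem2, a lipid-sensing receptor of macrophages, was 0.448 to 1.83 CPM in CON-GFP and 4.14 to 15.9 CPM in FPC-LIPA (median 8.20), a log2 fold change of 3.16 ± 0.39. Neither gene's groups overlapped. Lpl, lipoprotein lipase, was 7.98 to 17.3 CPM in CON-GFP and 85.4 to 335 CPM in FPC-LIPA (3.86 ± 0.34), and Cd63, a tetraspanin of late endosomes and lysosomes, 2.13 to 7.57 CPM and 17.3 to 55.3 CPM (2.80 ± 0.33). For all 5 of these genes FPC-LIPA was also called higher than FPC-GFP, in a comparison that called 1671 of 14620 genes (11.4%), 1508 higher (10.3%) and 163 lower (1.11%). Their log2 fold changes there were 1.70, 2.49, 1.76, 1.79 and 1.13. The count of 1671 moved with single livers. It was 856, 902 and 950 when FPC-LIPA 36, 37 or 39 was left out and 116 when all 3 were, 1028, 1049 and 1026 without FPC-GFP 11, 12 or 20, and 2612 without FPC-LIPA 33. When 36, 37 and 39 were left out, the 5 log2 fold changes against FPC-GFP were 1.90, 2.04, 1.69, 1.23 and 0.70, and the adjusted p-values of edgeR's test, from 0.0586 to 0.217, missed the threshold.

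Promoters of this list are shown because its genes moved together and because motifs of AP-1 and PU.1, factors active in macrophages, can be read in some of them. Of the 10 genes 8 were found in the RefSeq promoter table (GRCm38.p6; 250 bases before to 50 after the start), and 3 of the 8 held the AP-1 motif TGACTCA on either strand. Of all 32851 promoters 5.20% held it. A gene was counted if any of its promoters held the motif, whereas the shares of all promoters are counted per promoter. The PU.1 motif GAGGAAGT was in promoters of Spp1 and Mmp12 and in 3.20% of all promoters. The motif matches are a description of these letters, chosen after the values were seen. Capitals mark the AP-1 motif in Gpnmb (chr6:49036268-49036567, plus strand), in the second of the Mmp12 starts (chr9:7347124-7347423, plus strand) and in Itgax, the integrin CD11c (chr7:128129300-128129599, plus strand); in the other two it stands on the minus strand, as TGAGTCA.
Gpnmb: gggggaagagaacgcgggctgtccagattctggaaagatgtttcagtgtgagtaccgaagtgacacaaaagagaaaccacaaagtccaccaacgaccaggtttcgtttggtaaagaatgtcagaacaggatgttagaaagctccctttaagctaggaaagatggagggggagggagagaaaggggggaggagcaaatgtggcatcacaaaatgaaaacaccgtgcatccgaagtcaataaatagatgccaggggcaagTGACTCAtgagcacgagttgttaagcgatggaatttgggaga
Mmp12: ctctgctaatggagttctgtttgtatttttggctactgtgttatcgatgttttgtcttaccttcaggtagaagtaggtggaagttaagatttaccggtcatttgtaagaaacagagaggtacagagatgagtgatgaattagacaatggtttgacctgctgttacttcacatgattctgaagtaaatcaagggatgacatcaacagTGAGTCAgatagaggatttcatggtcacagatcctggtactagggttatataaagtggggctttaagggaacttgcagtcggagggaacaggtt
Itgax: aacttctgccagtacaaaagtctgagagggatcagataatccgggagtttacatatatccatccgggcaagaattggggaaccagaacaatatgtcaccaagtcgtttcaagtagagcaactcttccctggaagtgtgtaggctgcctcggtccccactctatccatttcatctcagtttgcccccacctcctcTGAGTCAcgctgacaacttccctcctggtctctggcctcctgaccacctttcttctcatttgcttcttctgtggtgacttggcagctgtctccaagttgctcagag

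Kupffer cell genes also stayed away. Of 12 tested, 11 were called higher and all 11 were still away, with a median log2 fold change of 1.62 (1.29 in FPC-GFP against CON-GFP), and 11 of 12 were called without 36, 37 and 39. Adgre1, which encodes the macrophage marker F4/80, was 4.56 to 8.20 CPM in CON-GFP, 14.8 to 27.9 in FPC-GFP and 23.2 to 160 CPM in FPC-LIPA. Its FPC-LIPA values lay above all CON-GFP values, highest in liver 37, and the log2 fold change was 3.30 ± 0.41 (adjusted p = 0.000125). Cd5l, a secreted macrophage protein, was 36.6 to 79.9 CPM in CON-GFP and 135 to 382 CPM in FPC-LIPA (2.42 ± 0.27). Marco, a scavenger receptor, was called (3.30 ± 1.04, adjusted p = 0.0327), but liver 33 alone had 116 CPM, while the other FPC-LIPA livers had 1.10 to 14.9 CPM and CON-GFP 0.645 to 6.80 CPM, so that the groups overlapped. The member that was not called was Cd163, a haemoglobin scavenger receptor, with 4.70 to 10.4 CPM in CON-GFP and 1.68 to 9.03 CPM in FPC-LIPA (−0.58 ± 0.36, adjusted p = 0.25).

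Among monocyte and macrophage genes, 10 of 11 were called higher, 5 still away and 5 new, that is, called in FPC-LIPA and not in FPC-GFP against CON-GFP, and 9 of 11 were called without 36, 37 and 39. Lyz2, lysozyme, was 30.7 to 75.4 CPM in CON-GFP (median 47.0), 80.3 to 263 CPM in FPC-GFP (median 108) and 360 to 698 CPM in FPC-LIPA (median 449), without overlap between any pair of groups (3.30 ± 0.26, adjusted p = 7.92e-06). Ptprc, the leukocyte antigen CD45, was 4.074 to 10.01 CPM in CON-GFP, 6.04 to 12.8 in FPC-GFP and 14.5 to 76.5 CPM in FPC-LIPA (2.13 ± 0.39, adjusted p = 0.00187). In FPC-GFP against CON-GFP its log2 fold change was 0.50 (adjusted p = 0.118). Among markers of other leukocytes, 2 of 10 B cell genes, 2 of 3 NK cell genes and 2 of 8 T cell genes were higher, 1 T cell gene (Cd4) was lower, and 1 of 5 genes of plasmacytoid dendritic cells and 2 of 3 neutrophil genes were higher. Without 36, 37 and 39 these counts were 5 of 10, 1 of 4, 0 of 8 with 0 lower, 1 of 5 and 2 of 3, and lymphocyte genes were near 1 CPM, where single counts weigh more.

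**Figure D3:**
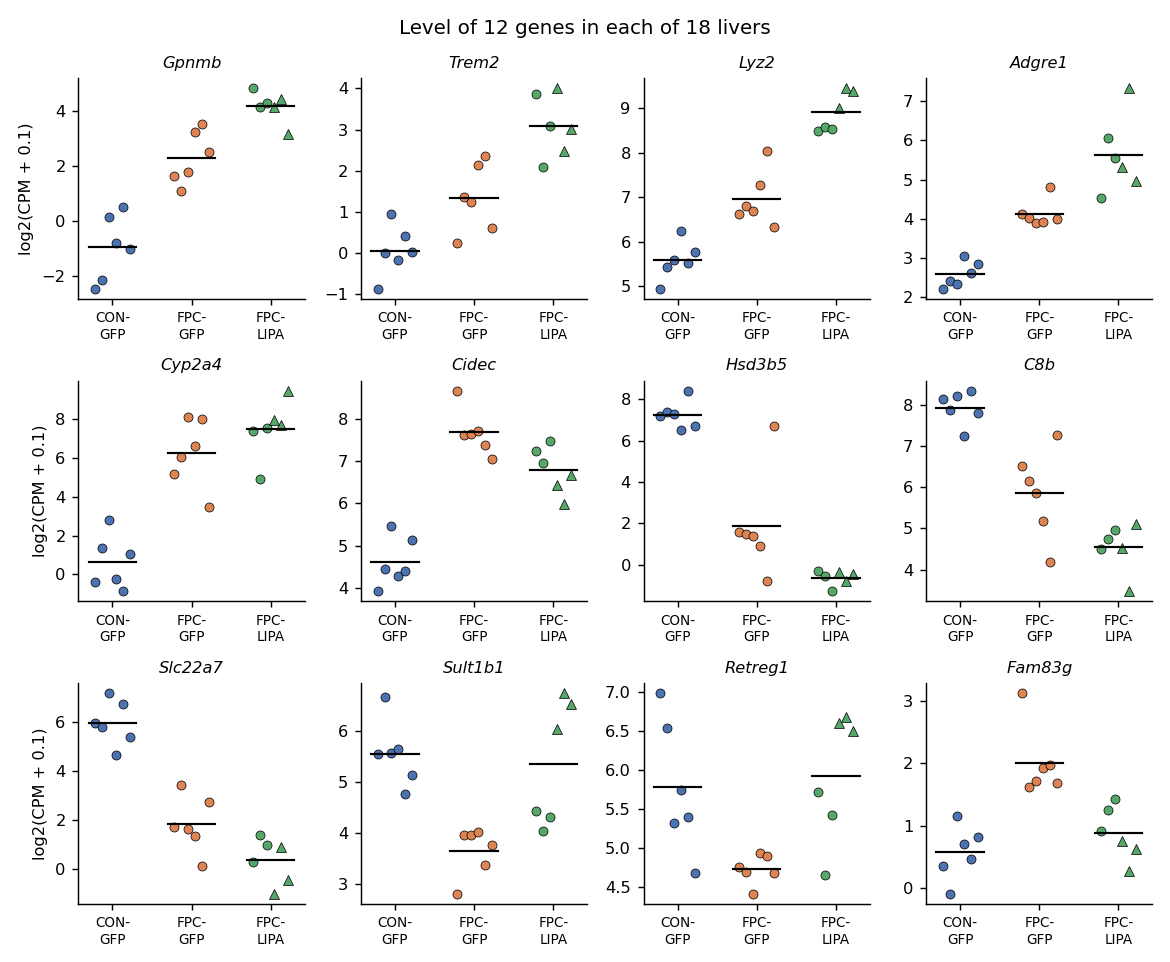
Level of 12 genes as log2(CPM + 0.1) (y axis) in each liver of CON-GFP, FPC-GFP and FPC-LIPA (x axis); the line is the mean of 6 livers and triangles are FPC-LIPA 36, 37 and 39. The 9 genes from Gpnmb to Slc22a7 had no overlap between CON-GFP and FPC-LIPA; Sult1b1 in FPC-LIPA splits into 3 livers at 16.4 to 21.6 CPM and 3 at 66.1 to 107 CPM.

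Inflammatory mediators were high in FPC-LIPA. Of 25 cytokines, chemokines and pattern receptors tested, 21 were called higher and none lower, 7 still away and 14 new, with a median log2 fold change of 1.80 against 0.87 in FPC-GFP. With 31, 33 and 34 alone, 21 of 28 were called. Ccl2, the monocyte chemoattractant, was 0.451 to 1.29 CPM in CON-GFP, 1.59 to 5.67 in FPC-GFP and 2.62 to 7.62 CPM in FPC-LIPA (2.58 ± 0.34, adjusted p = 0.000188). Il1b, interleukin-1β, was 0.693 to 3.29 CPM in CON-GFP and 3.56 to 29.1 CPM in FPC-LIPA (2.62 ± 0.49). In both genes FPC-LIPA lay above CON-GFP without overlap. Ccl6, a chemokine of myeloid cells, was among the new genes. It was 4.24 to 9.18 CPM in CON-GFP, 7.69 to 14.0 in FPC-GFP and 16.1 to 84.7 CPM in FPC-LIPA (2.75 ± 0.36). In FPC-GFP against CON-GFP its log2 fold change was 0.87 (adjusted p = 0.00908, edgeR quasi-likelihood test), under the 2-fold minimum. Not called were Il18, at 0.06 ± 0.27, and Cxcl1, at 0.72 ± 0.37. All 10 genes of MHC class II and costimulation were called higher (median 1.65; 10 of 10 without 36, 37 and 39), 6 of them new. Cd86, a costimulatory ligand, was 1.55 to 3.15 CPM in CON-GFP, 3.58 to 5.19 in FPC-GFP and 7.15 to 37.7 CPM in FPC-LIPA (3.08 ± 0.36). In FPC-GFP against CON-GFP the log2 fold change of Cd86 was 0.96 (adjusted p = 0.00238, edgeR quasi-likelihood test), under the 2-fold minimum. Of 18 interferon-stimulated genes 6 were called higher (median 0.77) and 8 without 36, 37 and 39, among them Oas1a (1.71 ± 0.22) and Gbp2 (1.34 ± 0.21).

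Acute-phase proteins did not share this direction. Of 19 tested, 2 were called higher and 5 lower, with a median of −0.35, the same to 2 decimals as in FPC-GFP against CON-GFP, and 2 higher and 2 lower without 36, 37 and 39. The higher ones were Saa3 and Il1rn. Saa3, the serum amyloid A that macrophages also make, was 5.25 to 13.8 CPM in CON-GFP, 23.0 to 35.5 CPM in livers 31, 33 and 34, and 146 to 191 CPM in 36, 37 and 39 (3.24 ± 0.54). The log2 fold change was 1.44 without the last 3 livers. Among the lower ones were Hamp, the iron hormone hepcidin (−1.58 ± 0.41), and Serpina3n (−1.39 ± 0.40), while Hpx, hemopexin (0.44 ± 0.22), and Hp, haptoglobin (−0.39 ± 0.23), were not called.

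In the fibrosis and stellate cell list 9 of 25 genes were called higher and none lower (median 0.81; 0.87 in FPC-GFP), 6 of them still away, and 12 of 25 without 36, 37 and 39. Col3a1, a fibrillar collagen, was 9.66 to 27.8 CPM in CON-GFP, 37.7 to 59.7 in FPC-GFP and 58.2 to 417 CPM in FPC-LIPA (2.81 ± 0.44, adjusted p = 0.000546). Col1a1 was 1.42 to 5.12 CPM in CON-GFP and 5.46 to 24.9 CPM in FPC-LIPA, with the 3 lowest values, 5.46 to 7.88 CPM, in 36, 37 and 39 (1.65 ± 0.39; 2.201 without them). Timp1, an inhibitor of matrix metalloproteinases, was 0 to 0.532 CPM and 0.813 to 3.81 CPM (2.67 ± 0.51). Acta2, the smooth muscle actin of activated stellate cells, was 0.0645 to 8.39 CPM in CON-GFP and 0.243 to 5.90 CPM in FPC-LIPA, which overlapped (0.26 ± 0.73, adjusted p = 0.814). Of 15 cell cycle genes 12 were called higher, 8 still away (median 1.503; 12 of 15 without 36, 37 and 39), such as Cdc20 (3.12 ± 0.45) and Ccnb1 (3.07 ± 0.55), while Cdkn1a, the inhibitor p21, was at −1.54 ± 0.64 (adjusted p = 0.0898). Of 12 endothelial genes 2 were called higher, and of 6 cholangiocyte genes 1 (2 and 0 with those livers left out).

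Among genes of drug, oxidant and bile acid metabolism some were called higher and some lower. Cyp2a4, a cytochrome P450 that is female-biased in mouse liver, was 0.448 to 6.90 CPM in CON-GFP, 11.2 to 282 in FPC-GFP and 30.1 to 706 CPM in FPC-LIPA. It had the largest increase among called protein-coding genes without overlap and with at least 1 CPM in FPC-LIPA (6.84 ± 0.85, adjusted p = 0.00011). It has near-identical paralogs, so its count is uncertain. Of 13 female-biased genes 4 were called higher, and 3 without 36, 37 and 39. Cbr3, a carbonyl reductase, followed at 5.04 ± 0.55. Of 12 NRF2 targets and metallothioneins 5 were called higher and 2 lower, and 6 and 2 without these livers. Gsta1, a glutathione transferase, was 2.77 to 7.76 CPM in CON-GFP and 32.1 to 171 CPM in FPC-LIPA (4.04 ± 0.40). The 2 lower genes were the metallothioneins Mt1 (−2.70 ± 0.55) and Mt2, which was 7.00 to 160 CPM in CON-GFP and 2.43 to 14.3 CPM in FPC-LIPA, overlapping (−3.55 ± 0.76). Abcc4, an exporter of bile acids across the sinusoidal membrane, was 1.30 to 2.51 CPM in CON-GFP, 5.64 to 28.6 in FPC-GFP and 12.5 to 42.0 CPM in FPC-LIPA (3.55 ± 0.30, adjusted p = 8.69e-06). Of 18 genes of bile acid synthesis and transport 2, Abcc4 and Cyp7a1, were called higher and 4, Slc10a1, Akr1d1, Cyp7b1 and Slco1a1, lower, and 1 and 4 without 36, 37 and 39. Cyp7a1, the rate-limiting enzyme of bile acid synthesis, was 4.40 to 62.1 CPM in CON-GFP and 28.7 to 110 CPM in FPC-LIPA, overlapping (1.504 ± 0.51, adjusted p = 0.045). Without 36, 37 and 39 it was 1.27 and not called.

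Genes of lipid storage were split. Cidec, a protein that fuses lipid droplets, was 15.1 to 43.9 CPM in CON-GFP, 132 to 403 in FPC-GFP and 63.7 to 176 CPM in FPC-LIPA. It was still away (2.15 ± 0.31, adjusted p = 0.000315), with all FPC-LIPA livers above CON-GFP. Against FPC-GFP its log2 fold change was −0.89 (adjusted p = 0.0421), under the 2-fold minimum. Its partner Cidea was at 2.04 ± 0.35, and these with Hilpda were the 3 called of 15 lipid droplet genes (median −0.33), of which 2 were called without 36, 37 and 39. Scd1, the stearoyl-CoA desaturase, was 1028 to 18007 CPM in CON-GFP and 23949 to 54545 CPM in FPC-LIPA (1.66 ± 0.46, adjusted p = 0.0179). CON-GFP liver 7 held the value of 1028, and the other 5 were from 9003 CPM up. Lpin1, a phosphatidate phosphatase, was 48.0 to 714 CPM in CON-GFP and 14.5 to 116 CPM in FPC-LIPA (−2.68 ± 0.67). Of 20 genes of fatty acid and triglyceride synthesis 4 were called higher and 2 lower (median 0.04), of 21 genes of fatty acid oxidation 2 higher and 1 lower (0.03), and of 15 genes of fructose use, glycolysis and gluconeogenesis 3 lower (−0.37). With 36, 37 and 39 left out these counts were 2 higher and 2 lower, 2 higher and 0 lower, and 1 lower.

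Of 25 cholesterol synthesis and uptake genes 1 was called, higher than in CON-GFP, and 12 of the 25 had a log2 fold change above 0. The median log2 fold change was −0.03, which turned to 0.09 with library size alone. Without 36, 37 and 39, 0 of 25 were called and the median was 0.02. Of 14 sterol efflux and LXR targets 4 were called higher (median 0.28) and 5 without 36, 37 and 39. Lpl was among the 4, with Abcg1 (1.46 ± 0.22), Soat1 (1.45 ± 0.25) and Mylip (1.01 ± 0.22). The lysosome list held 32 tested genes. Of these 4 were called higher (median 0.27), beside 11.8% of all tested genes, and 3 without 36, 37 and 39. The 4 were Cd63, Cd68, Ctss and Asah1. Among those not called was Lamp1, a lysosomal membrane protein, at −0.06 ± 0.17. Of 20 autophagy genes 0 were called in either direction (median −0.32) by the edgeR quasi-likelihood test or by DESeq2, though 8 and 11 of them had an unadjusted p under 0.05. An adjusted p under 0.05 was held by 4 and 6 of them, at changes under the 2-fold minimum, in edgeR Map1lc3a at 0.64 and Nbr1, Ulk1 and Atg14 at −0.83, −0.62 and −0.49. Of 16 genes of ER and integrated stress 2 were called higher, Asns (2.097 ± 0.66) and Atf3 (2.01 ± 0.28), and 1 without 36, 37 and 39.

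Large falls were seen in genes that male mice express more than females. Of 19 male-biased genes tested 13 were called lower and 1 higher. The median over the list was −1.64 (−0.87 in FPC-GFP). Of these 7 were still away and 7 new, and without 36, 37 and 39, 14 were called lower and 0 higher. Hsd3b5, a steroid dehydrogenase of male liver (chr3:98618634-98630252), was 91.5 to 336 CPM in CON-GFP (median 149) and 0.315 to 0.725 CPM in FPC-LIPA (median 0.612). It was the gene with the smallest adjusted p of the comparison (−8.19 ± 0.40, adjusted p = 2.79e-08). In FPC-GFP it was 0.480 to 106 CPM, with 5 livers at low values and one, of 106 CPM, at the control level, whereas all 6 FPC-LIPA livers were low. C8b, a chain of complement component C8, was 152 to 323 CPM in CON-GFP and 11.0 to 34.1 CPM in FPC-LIPA (−3.37 ± 0.28, adjusted p = 8.69e-06). Serpina1e, an α1-antitrypsin, was 205 to 2249 CPM and 19.3 to 41.3 CPM (−5.16 ± 0.51), and Mup7, a major urinary protein, 469 to 13450 CPM and 6.55 to 68.3 CPM (−7.43 ± 1.07). Both belong to families of near-identical copies, so their counts are uncertain. The member that went the other way, Mup20, the pheromone darcin, was 2264 to 6872 CPM in 31, 33 and 34 and 11421 to 29715 CPM in 36, 37 and 39, with CON-GFP at 2208 to 4571 CPM (1.96 ± 0.51, or 0.49 and not called without the last 3). Of 14 male-biased genes found in the RefSeq set, Moxd1 alone held the STAT5 motif TTCNNNGAA in any of its promoters. Of all promoters, counted per promoter and not per gene, 8.30% hold it.

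Other genes fell steeply without overlap. Slc22a7, an organic anion transporter, was 25.3 to 143 CPM in CON-GFP, 0.991 to 10.6 in FPC-GFP and 0.396 to 2.54 CPM in FPC-LIPA (−5.71 ± 0.54, adjusted p = 1.83e-05). Scara5, a ferritin receptor, was 3.81 to 56.3 CPM and 0.243 to 1.13 CPM (−5.72 ± 0.76), and Urad, an enzyme of urate breakdown, 17.02 to 32.3 CPM and 0.274 to 1.95 CPM (−4.40 ± 0.45). All 3 were still away. FPC-LIPA was also called lower when compared with FPC-GFP, by log2 fold changes of −1.68, −2.46 and −1.79 (adjusted p = 0.142 to 0.287, and not called, without 36, 37 and 39).

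Calls of zonated genes were mostly lower, for pericentral and periportal genes alike. Of 14 pericentral genes 7 were called lower and 0 higher (median −0.85), and of 14 periportal genes 5 lower and 1, Ctsc, higher (median −1.01); without 36, 37 and 39, 5 and 4 were lower. Cyp1a2, a pericentral cytochrome P450, was 198 to 401 CPM in CON-GFP and 41.3 to 112 CPM in FPC-LIPA (−2.03 ± 0.29), without overlap. Glul, the glutamine synthetase of the innermost pericentral cells, was at −0.56 ± 0.20 (adjusted p = 0.0541). Of 9 hepatocyte genes 3 were called lower, and 2 without 36, 37 and 39. Tat, tyrosine aminotransferase, was 619.5 to 2948 CPM and 138 to 709 CPM (−2.11 ± 0.47). Hnf4a, a transcription factor of hepatocyte identity, was 370 to 731 CPM in CON-GFP, 279 to 402 CPM in 31, 33 and 34 and 108 to 205 CPM in 36, 37 and 39 (−1.15 ± 0.34, or −0.61 and not called without the last 3). Alb, albumin, was at −0.41 ± 0.21 and was not called. The 9 hepatocyte markers together summed to 66088 to 99486 CPM in CON-GFP and 49745 to 74846 CPM in FPC-LIPA. The part of hepatocyte number in these results was not tested. Mitochondrially encoded genes were also lower, 8 of 13 called (median −1.16), with 5 of 13 called lower in FPC-GFP against CON-GFP (median −0.99). Without 36, 37 and 39, 1 of 13 was called and the median was −0.79. In CON-GFP mt-Co2 was 74.1 to 835 CPM and in FPC-LIPA 26.0 to 132 CPM (−2.65 ± 0.55). Of 16 circadian genes 2, Hlf (−1.15 ± 0.17) and Cry2 (−1.03 ± 0.27), were called lower, and 1 without these livers.

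Calls between FPC-LIPA and FPC-GFP went both ways among the diet-called genes. Of the 1030, 80 were called further in the diet's direction in FPC-LIPA, 67 of them higher and 13 lower, and 74 were called against it, 13 that had been higher on the diet and 61 that had been lower. The 80 were all still away. The 74 comprised 51 not resolved, 17 at the control level, 4 opposite and 2 still away, Peg10 and Sult2a7. When 36, 37 and 39 were left out these counts were 23 and 4. Over the 681 genes higher on the diet the median log2 fold change was 1.33 in FPC-GFP and, for all but the 34 not tested there, 1.49 in FPC-LIPA against CON-GFP, and over the 349 lower ones −1.39 and −1.26. These medians share the CON-GFP libraries and include the values that chose the genes.

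At the control level were 43 diet-called genes, 33 of them protein-coding. For 17 of them FPC-LIPA was also called different from FPC-GFP in the direction of CON-GFP, and these are named returned. Of the 17, 12 had been lower on the diet and 5 higher. The protein-coding ones were Sult1b1, Tstd1, Olfr1033, Retreg1, Ccng2, Arl4a and Car8, lower on the diet, and Fam83g, AI661453, Mast2 and Tgm1, higher on it. Sult1b1, a sulfotransferase of thyroid hormones and phenols, was 27.1 to 102 CPM in CON-GFP (median 47.3) and 6.95 to 16.2 CPM in FPC-GFP (median 14.5). In FPC-LIPA it was 21.6, 16.4 and 19.8 CPM in 31, 33 and 34, under every CON-GFP liver, and 66.1, 107 and 92.7 CPM in 36, 37 and 39. Its log2 fold change of 0.01 ± 0.46 is thus a mean of 2 separate sets of livers, and without the last 3 it was −1.42 (adjusted p = 0.0134), called lower.

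Retreg1, a receptor for autophagy of the endoplasmic reticulum, was 25.4 to 127 CPM in CON-GFP, 21.1 to 30.4 in FPC-GFP, and 24.9 to 52.5 CPM in 31, 33 and 34 with 90.6 to 102 CPM in 36, 37 and 39 (0.06 ± 0.40). Tstd1, a thiosulfate sulfurtransferase, was 11.8 to 28.0 CPM in CON-GFP, 2.97 to 6.64 in FPC-GFP and 8.73 to 27.6 CPM in FPC-LIPA (−0.33 ± 0.28). All FPC-LIPA values of Tstd1 were above FPC-GFP, yet 31, 33 and 34 were below the CON-GFP range. Fam83g, higher on the diet, was 0.838 to 2.13 CPM in CON-GFP, 2.97 to 8.63 in FPC-GFP and 1.11 to 2.58 CPM in FPC-LIPA (0.31 ± 0.29), and every FPC-LIPA liver was below every FPC-GFP liver. Mast2, a kinase, and Tgm1, a transglutaminase, were at 0.00 ± 0.32 and −0.09 ± 0.36. The gene with all 6 FPC-LIPA livers inside the CON-GFP range was Wsb1, a ubiquitin ligase subunit, at 20.9 to 59.3 CPM in CON-GFP, 10.6 to 26.3 in FPC-GFP and 23.8 to 50.2 CPM in FPC-LIPA. It was at the control level (−0.32 ± 0.26) but was not counted as returned, since its log2 fold change against FPC-GFP, 0.98, was under the 2-fold minimum.

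Few of these genes stood inside the control range in every liver. Of the 43, 1 had 6 FPC-LIPA livers inside the CON-GFP range, 4 had 5, 9 had 4, 15 had 3, 7 had 2, 5 had 1 and 2 had 0. Inside the range were 32, 21 and 29 of the 43 genes in livers 36, 37 and 39, and 17, 12 and 15 in 31, 33 and 34. With 36, 37 and 39 left out, 14 genes were at the control level, 5 of them among the 43, and 1 gene had returned, which was not among the 17. Fewer livers can widen the interval on which the placing rests. With FPC-LIPA 31, 33 or 34 left out, 43, 51 and 52 genes were at the control level, and 16, 24 and 20 had returned. The part of liver number in these counts was not tested. Single livers mattered too: the 17 returned genes were 5, 3 and 4 with liver 36, 37 or 39 left out, 11 with CON-GFP 2 left out, 10 with FPC-GFP 11 and 11 with FPC-GFP 20, and the 43 were 23 without CON-GFP 6, 25 without CON-GFP 2 and 25 without FPC-LIPA 36.

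**Figure D4:**
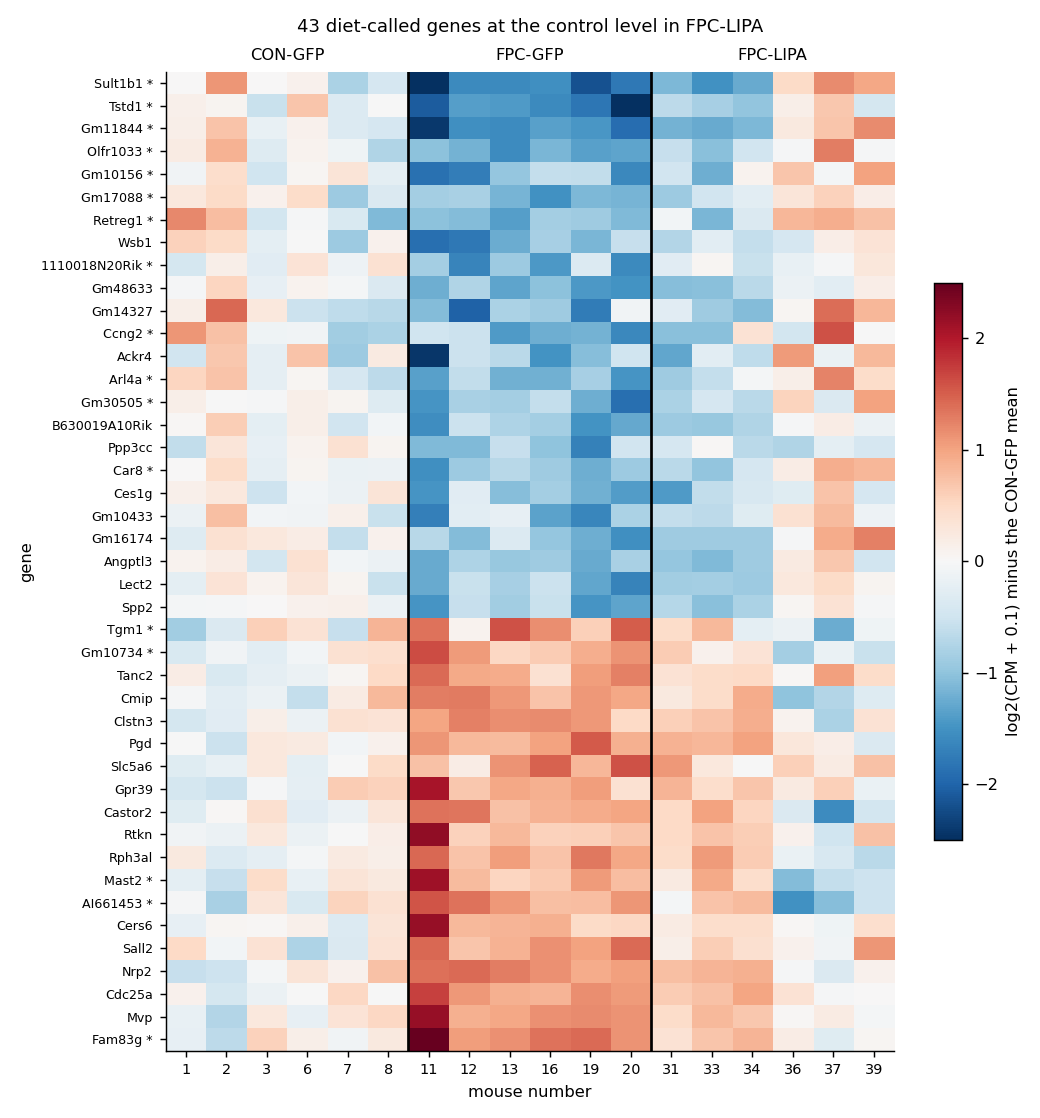
Level of the 43 diet-called genes at the control level (rows; an asterisk marks the 17 returned) in each of 18 livers (columns, by mouse number), as log2(CPM + 0.1) minus the CON-GFP mean of the gene (colour). FPC-LIPA 31, 33 and 34 mostly keep the colour of FPC-GFP in a paler form; 36, 37 and 39 are mostly near 0 or past it.

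The opposite genes, lower on the diet and called higher in FPC-LIPA than in CON-GFP, were Tmem256, 2310015A16Rik, Gm32461 and the pseudogene Rpl36-ps12. In all 4 the values of 31, 33 and 34 were inside the CON-GFP range and those of 36, 37 and 39 were outside it.

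Genes called in FPC-LIPA but not in FPC-GFP against CON-GFP numbered 1544, of which 1254 were higher, 290 lower, and 106 were not tested in the diet comparison. A gene can be new by passing a threshold that it narrowly missed on the diet. For 806 of the 1544, FPC-LIPA was also called against FPC-GFP in the same direction, 761 higher and 45 lower, and for 59 genes when 36, 37 and 39 were left out. Without 36, 37 and 39 the new genes were 1010, of which 639 were among the 1544. Processed and other pseudogenes, whose reads cannot be separated surely from those of their parent genes, made up 139 of the new genes, 130 of them higher.

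Ribosomal protein genes formed the largest list among the new genes. Of 83 cytosolic ribosomal protein genes 44 were called higher and all 44 were new, with a median log2 fold change of 1.13 (−0.49 in FPC-GFP). Rpl41 was 529 to 839 CPM in CON-GFP, 722 to 1914 CPM in 31, 33 and 34 and 4980 to 10158 CPM in 36, 37 and 39 (2.76 ± 0.56). Without these 3 livers 0 of 83 were called by edgeR, 6 had an unadjusted p under 0.05, and the median was −0.03. Of 80 nuclear oxidative phosphorylation genes 13 were called higher (median 0.52), and 0 of 80 without 36, 37 and 39 (median −0.17; 10 with an unadjusted p under 0.05). Hbb-bs, a β-globin that marks red blood cells, was highest in the same livers, at 85.7 to 290 CPM in CON-GFP, 218 to 569 CPM in 31, 33 and 34 and 1389 to 2185 CPM in 36, 37 and 39 (2.75 ± 0.52). Of 5 red blood cell genes 2, Hbb-bs and Hbb-bt, were called higher, and 1 without 36, 37 and 39. The others had another order, with Hba-a1, an α-globin, at 100.05 to 137.7 CPM in 31, 33 and 34 and 42.1 to 118.6 CPM in 36, 37 and 39 (0.61 ± 0.28, adjusted p = 0.12). Alas2, the haem synthesis enzyme of red cells, was 94.1 to 182.2 CPM in CON-GFP, 88.8 to 102.3 CPM in 31, 33 and 34 and 29.6 to 67.3 CPM in 36, 37 and 39 (−0.97 ± 0.28, adjusted p = 0.0216, under the 2-fold minimum). No pancreas gene was tested, and 0 of 2 muscle genes and 0 of 1 adipocyte gene were called. What these livers share beyond the values given was not tested.

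**Figure D5:**
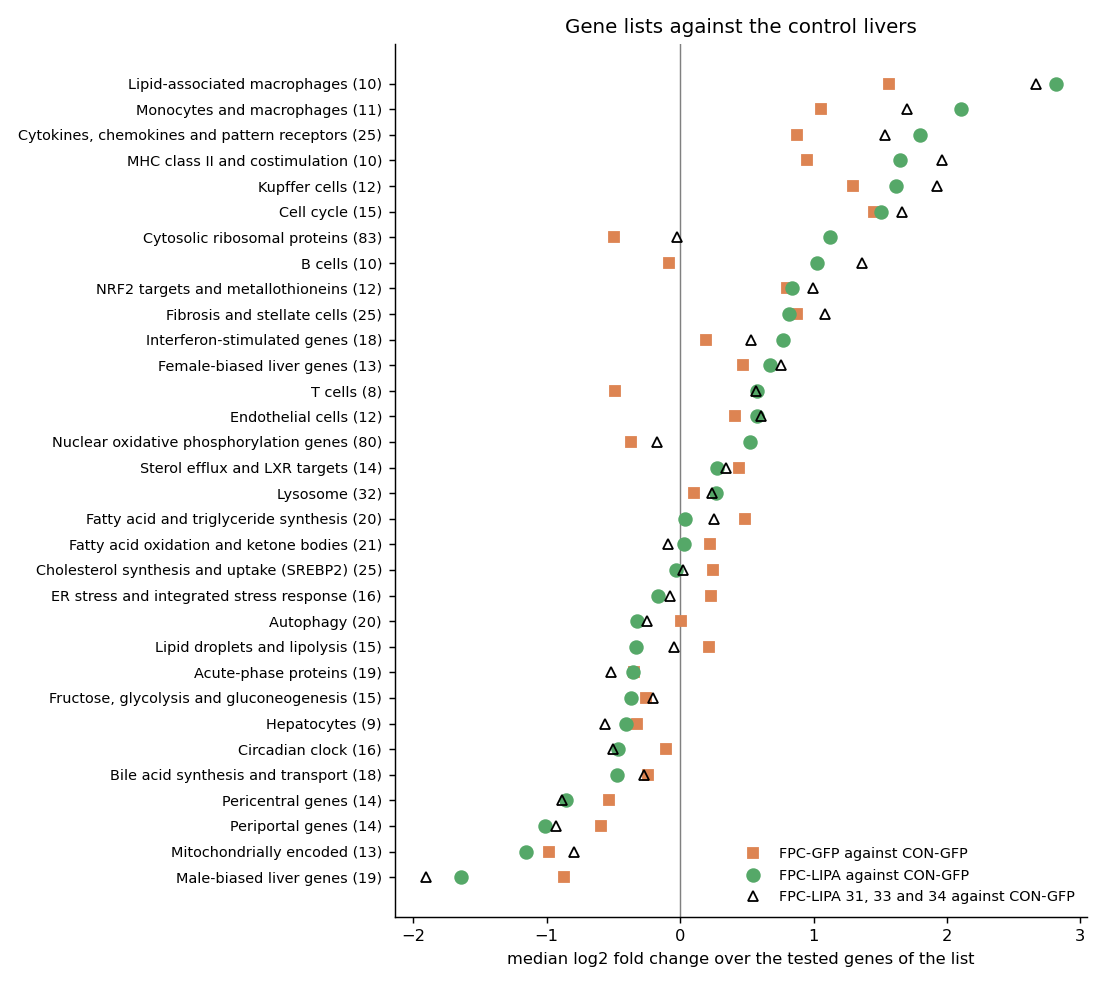
Median log2 fold change (x axis) over the tested genes of each list with at least 8 tested genes (rows, number tested in brackets), for FPC-GFP and FPC-LIPA against the same CON-GFP livers, and for FPC-LIPA 31, 33 and 34 alone (open triangles). The lists of lipid-associated macrophages (2.82) and of monocytes and macrophages (2.104) lie highest and male-biased genes (−1.64) lowest in FPC-LIPA; ribosomal protein genes move from 1.13 to −0.03 without 36, 37 and 39.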

How the data were processed

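RNA from 18 livers was sequenced, 1 library per mouse. The authors trimmed the reads, mapped them with HISAT2 2.1.0 to mm10 (GRCm38) and counted them per gene with the Subread package. The deposited values are raw counts, without normalization, for 55487 genes. The table has 23 columns, of which 18 were matched to samples by their labels and 5 columns of other vectors were not used here. The strand setting is not given in the sources used here, and the labels name both a stranded and an unstranded kit without saying which library had which, so genes that overlap on opposite strands, and paralogs and pseudogenes that share reads, are uncertain. GENCODE M21 held 55227 of the genes and gave coordinates on GRCm38. Promoters are from RefSeq (GRCm38.p6).

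Genes were kept with filterByExpr, scaled by TMM and tested with the quasi-likelihood test of edgeR 4.0.16 (R 4.3.3) with Benjamini-Hochberg adjustment, in separate fits of 12 libraries for each pair of groups. The SE was taken as |log2 fold change| over √F, and 95% intervals used the t quantile of the fitted degrees of freedom. CPM were TMM-scaled over 18 libraries. No fold change is a bound. Within groups, libraries differed by a chi-square of 16.7 to 648 per degree of freedom, so no library was a copy of another and counting error was small beside the differences between mice; p-values measure the spread between these mice. On simulated counts of 14433 genes, 188 of 200 genes changed 4-fold were recovered with 10 false calls, and the intervals held the true value for 95.4% of genes. Whether the intervals hold as well for genes whose FPC-LIPA livers fall into separate sets was not tested. The placing at the control level rests on these intervals, so the simulation does not vouch for it in such genes.

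Members and gene lists were chosen with earlier results of these data known, so that no list is independent support. Named genes were the 10 largest increases and decreases among called protein-coding genes without overlap and with at least 1 CPM in the higher group, up to 6 of each position class, up to 4 called and 2 uncalled genes of each list, called genes that went against their list, and Lipa, Tnf, Il1b, Adgre1, Col1a1, Acta2 and Ptprc, of which Tnf did not pass the filter. Genes named beyond this rule were chosen after their values were seen. One gene that the rule names is not reported here. Alternatives were DESeq2 1.42.0 size factors and Wald test, library size alone, other filters, all 18 libraries in one fit, libraries with numbers from 55 to 68, livers left out, a correction of each library for its trend on length, and other thresholds. Tables were made in Python 3.11.15 with pandas 2.3.3 and numpy 2.4.6, and figures with matplotlib 3.10.9.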

Additional observations from a re-analysis of the deposited data

Results flagged for a closer look

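Among the values given by library, 6 of 110 groups of 6 livers had one liver far from the other 5 by Dixon's ratio at 95%, and chance alone flags about 1 in 20 groups. In FPC-LIPA, liver 39 was lowest for Cd5l (135 CPM), liver 37 was highest for Ptprc (76.5 CPM) and lowest for C8b (11.0 CPM), and liver 34 was highest for mt-Co2 (132 CPM). In CON-GFP, liver 7 was lowest for Scd1 (1028 CPM), and the nuclear oxidative phosphorylation genes took the largest share of counts in liver 6 (1.90%). Liver 39 for Cd5l, and liver 37 for Ptprc and C8b, still lay outside the CON-GFP range of the gene.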

How the results depend on the processing

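The counts of all called genes (2176), of genes still away (628) and of new genes (1544) stayed within 1.5 times under the other scalings, the DESeq2 Wald test, the other filters, all 18 libraries in one fit, removal of the length trend and each liver left out, with the exceptions given here. In libraries with numbers from 55 to 68 they were 1107, 406 and 701, with 16 genes at the control level and 0 returned. Without FPC-LIPA 36, 37 and 39 there were 1010 new genes, 14 at the control level and 1 returned. With the length trend removed, 23 were at the control level and 10 returned. With no fold change minimum there were 3304 called, 1257 still away, 1138 at the control level and 296 returned. At an adjusted p under 0.01 there were 1198 called, 372 still away, 826 new and 0 returned. With the control level set within 1.5-fold, 1 gene stood at it and 0 had returned. With each liver left out in turn, called genes were 1760 to 2685, still away 499 to 683, new 1183 to 2062, at the control level 23 to 57 and returned 3 to 24. With library size alone 50 genes stood at the control level and 13 had returned, of which 16 were among the 43 and 6 among the 17, so that most of these genes changed although the counts stayed within 1.5 times. The 1671 genes called in FPC-LIPA against FPC-GFP were 1016 with library size alone, 3102 with no fold change minimum, 96 in libraries with numbers from 55 to 68, 53 at an adjusted p under 0.01 and 856 to 2612 with each liver left out. Fewer livers did not always leave fewer genes: without FPC-LIPA 31, 33 or 34 the called genes were 2308, 2685 and 2462. What causes these shifts was not tested.

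Of 136 named genes that were called, 85 were called under every alternative that gave a value and 51 lost the call under at least 1, 37 of them without FPC-LIPA 36, 37 and 39 and 43 in libraries with numbers from 55 to 68. Without 36, 37 and 39 Atp5mpl turned from 1.47 to −0.11 and Sult1b1 to −1.42, and the list medians of ribosomal protein and nuclear oxidative phosphorylation genes to −0.025 and −0.17. The median of cholesterol synthesis genes turned to 0.089 with library size alone and to 0.022 without 36, 37 and 39, and was −0.11 to 0.26 with each liver left out. That of acute-phase proteins was −0.49 to 0.25 with each liver left out, and that of T cell genes was −0.72 with at least 1 CPM in 6 libraries. No paired analysis was possible because the groups share no mouse number.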
